A study of Homo sapiens with 3 samples.

Results

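The Hippo pathway and its effectors were described here by 10 genes, which were chosen by name from the 62754 genes of the deposited table. They were the coactivators YAP1 and WWTR1 (the gene for TAZ), the DNA-binding partners TEAD1, TEAD2, TEAD3 and TEAD4, the kinases LATS1 and LATS2, and the matricellular genes CCN1 and CCN2. All 10 were found by Ensembl identifier. RNA-seq was measured in MCF10A, a human mammary epithelial line that is immortalized but does not form tumors. The cells had been transduced with an empty Tet-One retroviral vector that carried no gene of interest, were selected with puromycin, and received neither doxycycline nor another treatment. The 3 replicates (EV 1, 2 and 3) were of 1 condition, so that no groups were compared. Sample titles and library names gave no batch. Whether the replicates came from separate cultures was not stated, and their spread may therefore be technical.

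In the Hippo pathway, MST kinases with the adaptors SAV1 and MOB1 activate the LATS kinases. LATS phosphorylates YAP and TAZ, which are then held in the cytoplasm or degraded. Without this phosphorylation YAP and TAZ enter the nucleus, bind TEAD factors, which carry the DNA-binding domain that YAP and TAZ lack, and activate genes such as CCN1 and CCN2. The pathway responds to cell density, polarity and mechanical tension and is regulated mainly through protein phosphorylation, which RNA-seq does not measure.

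The DNA letters that TEAD factors recognise were located in the promoter sequences, because CCN2 is a textbook target of YAP and TEAD. RefSeq promoter windows (GRCh38.p14) of 250 bases before to 50 bases after the start were matched for 7 of the 10 genes, with 10 windows in all. Windows of TEAD1, TEAD4 and CCN1 were not matched. The TEAD core motif CATTCC was searched on both strands, where it reads GGAATG on the other strand. The 250 bases before the start of CCN2 (chr6:131951373-131951622, minus strand) and of YAP1 (chr11:102110197-102110446, plus strand) are shown 5′ to 3′, with the motif in capitals.
CCN2: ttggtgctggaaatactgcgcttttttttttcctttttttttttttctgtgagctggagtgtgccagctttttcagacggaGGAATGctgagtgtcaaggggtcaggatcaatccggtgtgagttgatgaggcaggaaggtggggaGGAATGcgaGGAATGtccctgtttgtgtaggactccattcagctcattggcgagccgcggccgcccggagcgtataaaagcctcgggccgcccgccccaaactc
YAP1: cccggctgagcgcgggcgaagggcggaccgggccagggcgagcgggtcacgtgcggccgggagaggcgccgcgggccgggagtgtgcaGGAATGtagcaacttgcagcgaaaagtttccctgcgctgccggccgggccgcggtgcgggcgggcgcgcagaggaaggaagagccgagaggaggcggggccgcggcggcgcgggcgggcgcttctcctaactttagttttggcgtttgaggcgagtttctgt

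The CCN2 window held 3 copies, whose first bases lay 169, 104 and 95 bases before the start. The YAP1 window held 1 copy, 162 bases before the start, and the LATS2 window held 1 copy, at base 10 after the start. The motif was thus present in 3 of the 10 windows, those of 3 of the 7 genes, and in 14% of all 35116 windows. A total of 45 windows (0.128%) held 3 or more copies. The letters TGANTCA, a loose form of the AP-1 motif, allow any base at N and form the same pattern on both strands. They were present in 1 of the 10 windows, a LATS1 window with TGAATCA, and in 7.71% of all windows. They did not overlap with CATTCC in any of the 7 genes. These are matches of letters and not measured binding sites.

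The labelled cell type was checked on marker genes. All 5 basal breast epithelial markers (KRT5, KRT14, KRT17, TP63 and ITGA6) and all 4 general epithelial markers were at or above 1 TPM, with sums of 12125 to 15655 TPM and 508 to 607 TPM in the 3 replicates. The sums were 13.4 to 14.3 TPM for 5 fibroblast markers, 1.15 to 2.96 TPM for 4 leukocyte markers, 1.57 to 2.0 TPM for 3 endothelial markers and 0.153 to 0.261 TPM for 2 adipocyte markers. A mean of at least 1 TPM was found for 2 of the 5 fibroblast markers, DCN at 9.05 TPM and COL1A1 at 4.96 TPM. The same held for 1 of the 4 leukocyte markers (CD14, 1.96 TPM) and 1 of the 3 endothelial markers (PECAM1, 1.77 TPM). It held for 0 of the 2 adipocyte markers. COL1A2, PDGFRA, LUM, CD3E, CDH5 and ADIPOQ had 0 reads in every replicate. CD68, also a leukocyte marker, had 0, 2 and 0 reads in replicates 1, 2 and 3. Exons of ENSG00000264772 on the same strand cover 94.9% of its canonical transcript, so that the level of CD68 is uncertain. The libraries held 15273329, 15446347 and 11166546 reads on annotated genes in replicates 1, 2 and 3, and 1 read in 1 kb of transcript was worth 0.190, 0.185 and 0.223 TPM. Replicate 3 stood apart, with 79.6% of its TPM in protein-coding genes, where replicates 1 and 2 had 91.5% and 89.8%. Levels with protein-coding genes set to a common sum are given in the last section. The cause of the difference was not tested.

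All 10 genes were expressed in MCF10A cells. Their means lay between 11.0 TPM for TEAD3 and 145 TPM for YAP1, and each of the 10 was above the cutoff of 1 TPM in every replicate. TPM is a level per transcript length within a replicate, so that levels of different genes can be set side by side. Of all 20046 protein-coding genes in the table, 56.7% had a mean of at least 1 TPM. At 10 TPM, a cutoff chosen after the values were seen, all 10 genes were again above it by the mean, as were 41.7% of protein-coding genes. TEAD3 lay close to this cutoff and fell below it with canonical transcript lengths, at 8.93 TPM, and without replicate 2, at 9.85 TPM. The canonical transcript of TEAD3 is also its longest. The first of these falls thus came only from setting the TPM of all genes to a common sum again. The median of the 10 means was 53.9 TPM, where that of the protein-coding genes was 3.75 TPM over all of them and 24.9 TPM over those with at least 1 TPM. In these bulk samples, fewer cells that express a gene and less RNA per cell cannot be told apart.

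**Figure D1:**
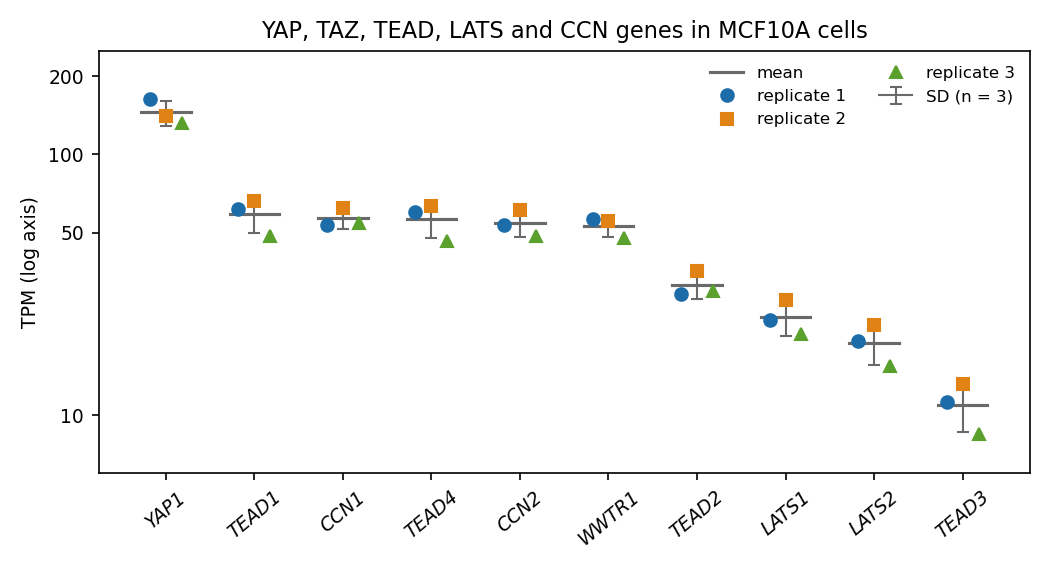
TPM (log axis) of the 10 genes in replicates 1, 2 and 3, ordered by mean log2(TPM + 1), with the mean (horizontal line) and SD over 3 replicates (bar). YAP1 sits above all others, TEAD1, CCN1, TEAD4, CCN2 and WWTR1 overlap between 46.4 and 66.5 TPM, and TEAD3 is the lowest in every replicate.

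The coactivators came first. YAP1 (ENSG00000137693, chromosome 11 of hg38 from 102110447 to 102233424, plus strand, 9 exons in the canonical transcript) was measured at 163, 140 and 132 TPM in replicates 1, 2 and 3. This gave 145 ± 16.0 TPM (SD, n = 3), from 3185 to 4626 reads. YAP1 was the highest of the 10 genes in every replicate and ranked at position 997 of the protein-coding genes, above 95% of them.
WWTR1 (ENSG00000018408, chromosome 3 from 149517235 to 149736714, minus strand, 7 exons) encodes TAZ, the paralog of YAP. It was measured at 56.4, 55.5 and 47.6 TPM, or 53.2 ± 4.84 TPM (SD, n = 3). Replicates 1 and 2 were close to each other and replicate 3 was lower. The ratio of YAP1 to WWTR1 was 2.89, 2.53 and 2.77 in the 3 replicates, with a mean of 2.73 ± 0.183 (SD, n = 3). YAP1 thus made up the larger part of the transcripts of both coactivators in every replicate, and both genes together summed to 198 ± 20.0 TPM (SD, n = 3).

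The TEAD genes differed in level from each other. TEAD1 (ENSG00000187079, chromosome 11 from 12674421 to 12944737, plus strand, 13 exons) was measured at 62.0, 66.5 and 48.7 TPM, or 59.1 ± 9.29 TPM (SD, n = 3). TEAD4 (ENSG00000197905, chromosome 12 from 2959330 to 3040676, plus strand, 13 exons) was measured at 60.2, 63.2 and 46.4 TPM, or 56.6 ± 8.96 TPM (SD, n = 3). For both genes, replicate 2 was the highest and replicate 3 the lowest, and the ranges of both overlapped almost fully. The ratio of TEAD1 to TEAD4 was 1.03, 1.05 and 1.05, so that TEAD1 was the higher in all 3 replicates by less than the spread of either gene between replicates.
TEAD2 (ENSG00000074219, chromosome 19 from 49340595 to 49362457, minus strand, 13 exons) was measured at 29.1, 35.9 and 30.0 TPM, or 31.7 ± 3.66 TPM (SD, n = 3). TEAD3 (ENSG00000007866, chromosome 6 from 35473597 to 35497079, minus strand, 13 exons) was measured at 11.2, 13.2 and 8.48 TPM, or 11.0 ± 2.38 TPM (SD, n = 3). TEAD2 lay below TEAD1 and TEAD4 in every replicate and TEAD3 below TEAD2, with no overlap between these levels. TEAD3 had the fewest reads of the 10 genes, with 176, 213 and 113, and its value in replicate 3 had an exact 95% Poisson interval from 6.99 to 10.2 TPM, where that of replicate 2 was from 11.5 to 15.1 TPM. Intervals of this kind cover counting error only.
Of the summed TEAD TPM, TEAD1 held 37.3% ± 0.860, TEAD4 35.7% ± 1.18, TEAD2 20.2% ± 2.28 and TEAD3 6.88% ± 0.525 (SD, n = 3 each). The share of TEAD2 was 17.9, 20.1 and 22.5% in replicates 1, 2 and 3, the widest range of the 4. The 4 genes summed to 163, 179 and 134 TPM. The sum of YAP1 and WWTR1 was above that of the TEAD genes in each replicate, at a ratio of 1.35, 1.10 and 1.34.

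**Figure D2:**
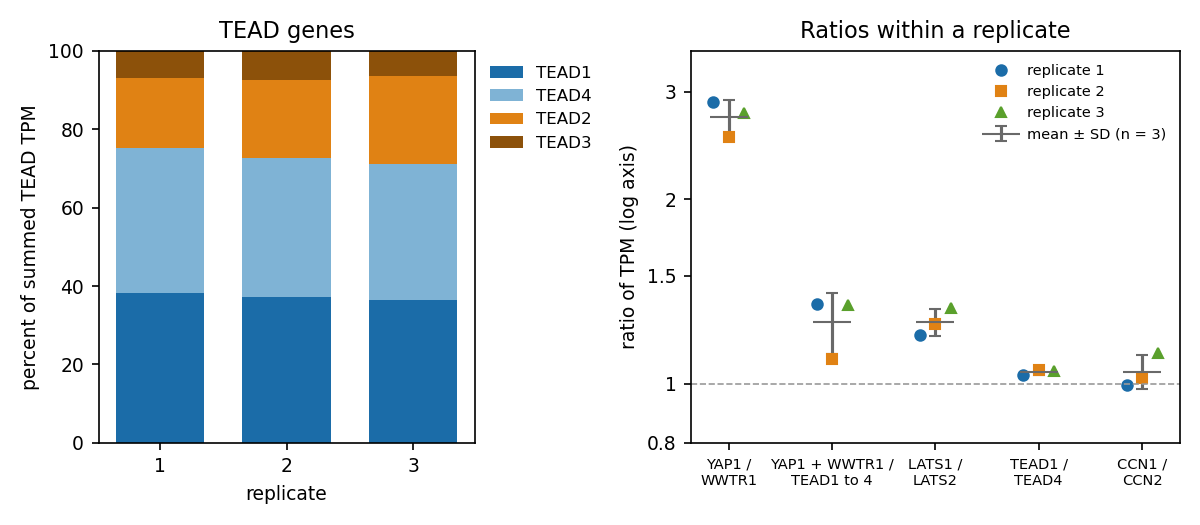
Left, percent of the summed TEAD TPM held by each TEAD gene in replicates 1, 2 and 3. Right, ratios of TPM within a replicate (log axis), with the mean and SD over 3 replicates and a dashed line at a ratio of 1. TEAD1 and TEAD4 hold similar shares, YAP1 is above WWTR1 by 2.53 to 2.89, and the ratio of CCN1 to CCN2 lies on both sides of 1.

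The LATS kinases, the inhibitors of YAP and TAZ, were lower than both coactivators. LATS1 (ENSG00000131023, chromosome 6 from 149658153 to 149718105, minus strand, 8 exons) was measured at 23.1, 27.6 and 20.5 TPM, or 23.8 ± 3.60 TPM (SD, n = 3). LATS2 (ENSG00000150457, chromosome 13 from 20973036 to 21061586, minus strand, 8 exons), which is itself known as a target of YAP and TAZ, was measured at 19.3, 22.1 and 15.5 TPM, or 18.9 ± 3.33 TPM (SD, n = 3). Both kinases were highest in replicate 2 and lowest in replicate 3, and their ranges overlapped. Within each replicate LATS1 was the higher, at a ratio to LATS2 of 1.20, 1.25 and 1.33. The sum of YAP1 and WWTR1 was 4.70 ± 0.663 times the sum of LATS1 and LATS2 (SD, n = 3), with values of 5.17, 3.94 and 4.98.

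CCN1 and CCN2, the secreted proteins formerly called CYR61 and CTGF, are the targets most often used as a readout of YAP and TAZ. CCN1 (ENSG00000142871, chromosome 1 from 85580761 to 85584589, plus strand, 5 exons) was measured at 53.4, 62.5 and 54.7 TPM, or 56.9 ± 4.93 TPM (SD, n = 3). CCN2 (ENSG00000118523, chromosome 6 from 131948176 to 131951372, minus strand, 5 exons), whose promoter with 3 motif copies is shown above, was measured at 53.8, 61.2 and 48.8 TPM, or 54.6 ± 6.24 TPM (SD, n = 3). Replicate 2 was the highest for both genes. The ratio of CCN1 to CCN2 was 0.994, 1.02 and 1.12, with no common direction over the 3 replicates. It depended on the transcript length. The longest CCN1 transcript, which gave the deposited TPM, has 3080 bases and the canonical transcript 2278 bases. With canonical lengths for all genes, CCN1 was at 62.7 TPM, CCN2 at 44.5 TPM and the ratio at 1.41. CCN2 kept the same length, and its level fell only because the TPM of all genes were again set to a common sum.

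The order of the 10 genes was YAP1, TEAD1, CCN1, TEAD4, CCN2, WWTR1, TEAD2, LATS1, LATS2 and TEAD3 by mean log2(TPM + 1). Neighbours were held apart where the difference had the same sign in all 3 replicates and was larger than the larger SD of both genes. By this rule 5 of 9 neighbouring pairs were apart. YAP1 was above TEAD1 by 1.29 on the log2(TPM + 1) scale, where the larger SD was 0.23. WWTR1 was above TEAD2 by 0.73, TEAD2 above LATS1 by 0.40, LATS1 above LATS2 by 0.32 and LATS2 above TEAD3 by 0.74, each in all 3 replicates. The 5 genes from TEAD1 to WWTR1 were not told apart, with differences between neighbours of 0.02 to 0.04. Of all 45 pairs of the 10 genes, 35 were apart, and the other 10 pairs were those among these 5 genes.

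The replicates were compared next, since differences between libraries limit how finely levels can be read. Replicate 3 was the lowest for 8 of the 10 genes, the exceptions being TEAD2 and CCN1, which were lowest in replicate 1. Of the protein-coding genes at or above 10 TPM, 84.3% were lowest in replicate 3. The log2 ratio of replicate 3 to the mean of replicates 1 and 2 lay between -0.53 for TEAD3 and -0.08 for CCN1, and its median over those protein-coding genes was -0.24. WWTR1 at -0.23 and CCN2 at -0.24 were closest to that median, while TEAD1 at -0.40, TEAD4 at -0.41 and LATS2 at -0.42 were further below it. Without replicate 3, the means were 152 TPM for YAP1, 56.0 TPM for WWTR1, 64.3 TPM for TEAD1, 12.2 TPM for TEAD3 and 20.7 TPM for LATS2, each within 1 SD of the mean of all 3 replicates.

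**Figure D3:**
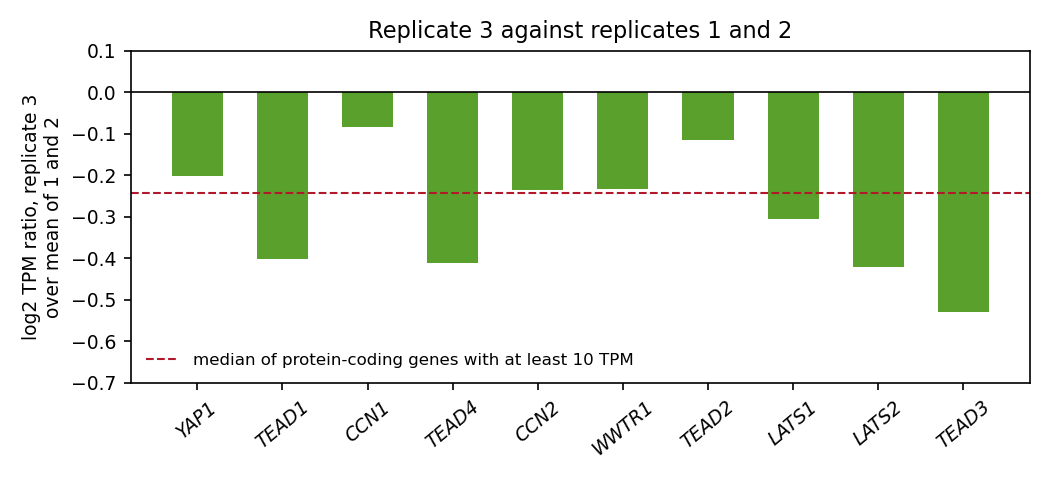
Log2 ratio of TPM in replicate 3 to the mean of replicates 1 and 2 for the 10 genes, with a dashed line at the median of protein-coding genes at or above 10 TPM. All 10 bars are below 0, the smallest being that of CCN1 at -0.08 and the largest that of TEAD3 at -0.53.

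To see whether the genes varied between libraries by more than counting error, the reads of each gene were compared with an equal level after scaling the replicates by the median ratio of genes with at least 10 TPM. This chi-square test compares 3 libraries, not conditions. With an adjusted p below 0.05 (Benjamini-Hochberg over 15802 genes) and a ratio of the highest to the lowest replicate of at least 1.5 required, 0 of the 10 genes and 7.77% of all genes tested were called. At an unadjusted p below 0.05 there were 8 of the 10 genes and 41.1% of all genes. At an adjusted p below 0.05 with no minimum ratio there were 6 of the 10 genes (YAP1, TEAD1, TEAD2, CCN1, LATS1 and LATS2) and 31.2% of all genes. All genes tested include those with as few as 15 reads in all, while the 10 genes had at least 113 in each replicate. The test detects smaller differences at more reads, so these shares compare genes of unlike depth. The scaled ratio of the highest to the lowest replicate was smallest for WWTR1 at 1.01 and largest for TEAD3 at 1.33. YAP1, with the most reads, had a ratio of 1.15 (adjusted p = 9.3e-09 by the chi-square test), and TEAD3 had an adjusted p of 0.0973 by that test. Over the 10 genes the SD of log2(TPM + 1) had a median of 0.18, where it was 0.16 over the protein-coding genes with at least 10 TPM.

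Reads can be credited to the wrong gene where sequences are alike or genes overlap. The exons of the 10 canonical transcripts overlapped no other annotated exon in the same orientation. Of all words of 50 bases in these transcripts, TEAD3 and TEAD4 had 7 in common, out of 2937 and 1661, and no other pair of the 10 genes had any. YAP1 shared 29 words with the pseudogene YAP1P1, which was at 0.682, 0 and 0.641 TPM from at most 5 reads. Genes on the opposite strand overlapped 11.8% of the canonical transcript of YAP1, 11.4% of WWTR1, 14.7% of TEAD2, 11.9% of CCN2 and 3.44% of LATS1. Whether strand was used in counting was not stated, and without it reads of such pairs cannot be told apart. ENSG00000254422, opposite YAP1, was at 0.303, 0.295 and 0.356 TPM, and ENSG00000277459, which overlaps 11 bases of YAP1, was at 1.51, 3.22 and 2.12 TPM. ENSG00000278899, opposite LATS1, was at 1.20, 1.02 and 0.880 TPM. The antisense gene WWTR1-AS1 was at 0.224, 0.653 and 0.526 TPM, LINC01013 opposite CCN2 was at 0.502, 0.418 and 0 TPM, and CD37 opposite TEAD2 was listed at 0 in each replicate.

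The other genes of the pathway were read from 11 lists with 97 different genes. A mean of at least 1 TPM was found for 83 of the 97 genes, and a mean of at least 10 TPM for 70, against 56.7% and 41.7% of all protein-coding genes, the shares against which each list was read. Their median was 28.9 TPM, and 6 genes had 0 reads in every replicate. The upstream kinase cassette was expressed as a whole.
All 5 genes of MST kinases and adaptors were at or above 1 TPM. MOB1A, the coactivator of LATS, was at 134 ± 13.7 TPM, STK4 (MST1) at 36.3 ± 3.83 TPM and SAV1, the scaffold, at 31.9 ± 1.16 TPM (SD, n = 3 each). STK3 (MST2) was the lowest of them at 7.72 ± 0.869 TPM (SD, n = 3), below STK4 in each replicate. Both NDR kinases, the relatives of LATS, were expressed, with STK38 at 32.4 ± 3.78 TPM and STK38L at 14.3 ± 2.97 TPM (SD, n = 3 each).
Of the upstream activators, 15 of 16 were at or above 1 TPM. NF2 (merlin), which recruits LATS to the membrane, was at 131 ± 18.3 TPM, MAP4K4 at 129 ± 19.8 TPM and MINK1 at 73.2 ± 14.5 TPM (SD, n = 3 each), the last 2 being kinases that phosphorylate LATS in parallel to MST. MAP4K1 was the exception, with 2, 8 and 2 reads and a mean of 0.288 TPM. NF2 was thus at the level of YAP1, and the LATS kinases themselves were lower than either.

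The inhibitors of the kinases were present as well. All 13 genes of STRIPAK, the phosphatase complex that inactivates MST kinases, were at or above 1 TPM. PPP2CB, a catalytic subunit but not the only one in the list, was at 123 ± 0.697 TPM (SD, n = 3). The scaffold PPP2R1A was at 123 ± 14.5 TPM and PDCD10 at 71.1 ± 4.35 TPM (SD, n = 3 each). STRIP2 was the lowest at 9.86 ± 0.934 TPM (SD, n = 3). All 3 genes of the Ajuba family, LIM proteins that bind and inhibit LATS, were at or above 1 TPM, with AJUBA at 126 ± 17.0 TPM, LIMD1 at 20.3 ± 2.71 TPM and WTIP at 3.61 ± 0.435 TPM (SD, n = 3 each).
Proteins that retain YAP and TAZ outside the nucleus were the most abundant list, with a median of 181 TPM and 13 of 14 genes at or above 1 TPM. The phosphoserine-binding adaptors SFN, YWHAE and YWHAZ were at 1634 ± 233, 1054 ± 101 and 710 ± 68.0 TPM (SD, n = 3 each). Of the angiomotins, AMOT had 0, 1 and 1 reads, while AMOTL1 was at 71.7 ± 8.41 TPM and AMOTL2 at 43.5 ± 7.85 TPM (SD, n = 3 each), 2 genes named after their values were seen. All 4 genes for degradation of YAP and TAZ were at or above 1 TPM, from BTRC at 15.8 ± 1.69 TPM, over CSNK1D at 55.9 ± 7.55 and FBXW11 at 67.6 ± 3.85 TPM, to CSNK1E at 82.9 ± 15.6 TPM (SD, n = 3 each). BTRC and FBXW11 are subunits of ubiquitin ligases and the CSNK1 genes are kinases. The readthrough gene TPTEP2-CSNK1E, which was at 0.216 to 0.508 TPM, covers 46.7% of the canonical CSNK1E transcript.

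**Figure D4:**
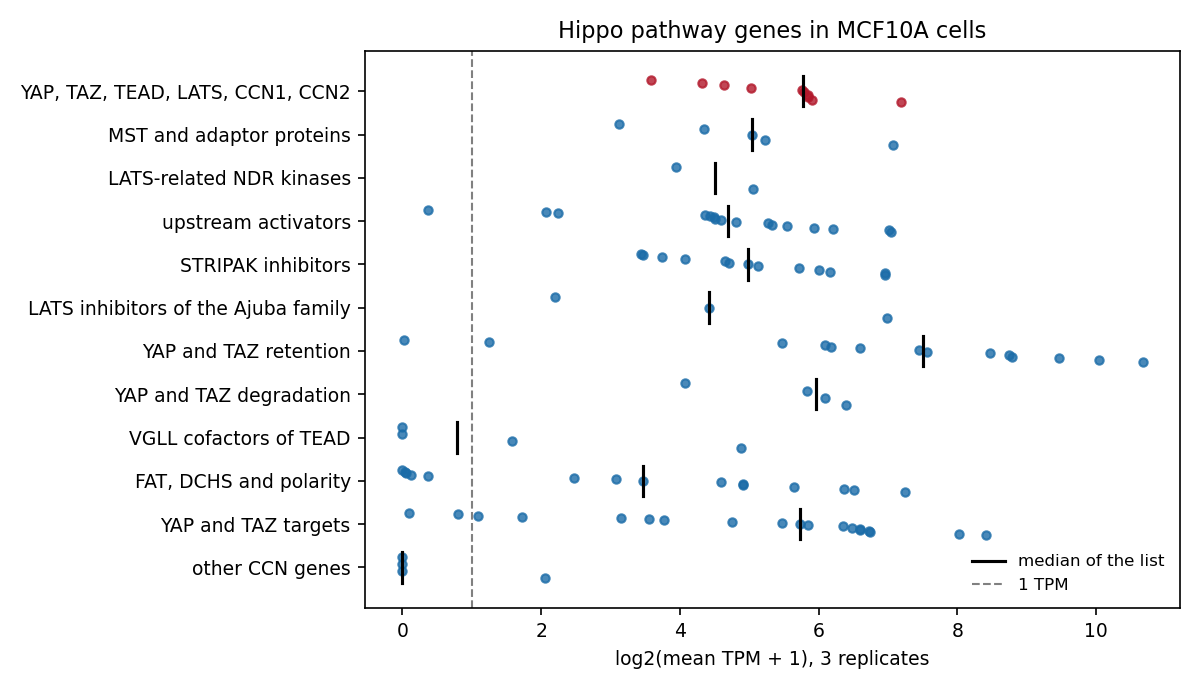
Mean TPM of 3 replicates as log2(mean TPM + 1) for the 10 genes (red) and the genes of the 11 other lists (blue), 1 point a gene, with the median of each list (black line) and 1 TPM (dashed line). The retention list has the highest median, and both the VGLL and the other CCN genes include genes with 0 reads at the left edge.

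The VGLL proteins, which bind TEAD factors in place of YAP and TAZ, were expressed in part. VGLL4, a repressor of TEAD, was at 29.5, 32.3 and 23.8 TPM, or 28.5 ± 4.35 TPM (SD, n = 3), a level near that of TEAD2. Exons of ATG7 on the opposite strand overlap 42.3% of its canonical transcript, and ATG7 was at 18.7, 21.5 and 16.7 TPM, so that without strand the level of VGLL4 is uncertain. VGLL3 was at 2.0 ± 0.181 TPM (SD, n = 3). VGLL1 and VGLL2 had 0 reads in every replicate, which allows up to 0.587 and 0.300 TPM in the shallowest replicate at a limit of 3 reads.
Of the cadherins and polarity proteins that regulate the pathway from the membrane, 10 of 15 were at or above 1 TPM, a share near the 56.7% of all protein-coding genes. FAT1, an atypical cadherin, was at 151 ± 30.1 TPM, FAT2 at 90.2 ± 21.0 TPM and the polarity protein SCRIB at 81.5 ± 11.7 TPM (SD, n = 3 each). The apical protein gene CRB2 had 0 reads in every replicate, which allows up to 0.119 TPM. FAT3, DCHS1, DCHS2 and CRB1 were the other 4 genes below 1 TPM, with means between 0.0223 and 0.296 TPM, and were named after their values were seen.

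Target genes of YAP and TAZ other than CCN1, CCN2 and LATS2 were at or above 1 TPM for 17 of 19 genes, with a median of 52.4 TPM. F3, the gene for tissue factor, was at 341 ± 42.8 TPM, NT5E (CD73), an ectonucleotidase, at 260 ± 22.3 TPM, and MYOF, a membrane repair protein, at 106 ± 12.5 TPM (SD, n = 3 each). These 3 genes were above CCN1 and CCN2 in every replicate. ANKRD1, a further textbook target, was at 0.213 TPM from 2 reads in replicate 1 and had 0 reads in replicates 2 and 3. The other gene below 1 TPM, TGFB2, named after its value was seen, had 1.07, 0.693 and 0.457 TPM from 33, 22 and 12 reads, so that replicate 1 lay above the cutoff. Other genes on the same strand cover 23.4% of the canonical TGFB2 transcript. In the chi-square test, 1 of the 18 targets with enough reads was called, FOXF2, also named after its values were seen, with 11.9, 13.2 and 7.19 TPM in replicates 1, 2 and 3.
Of the other CCN genes, CCN3 was at 3.15 ± 0.288 TPM (SD, n = 3). CCN4, CCN5 and CCN6 had 0 reads in every replicate, which allows up to 0.129, 0.243 and 0.485 TPM. CCN1 and CCN2 summed to 104 to 124 TPM in the 3 replicates and were the only CCN genes above 10 TPM among the 6.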

How the data were processed

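RNA-seq was measured in 3 replicates of MCF10A cells. By the study's methods and the submitters' processing notes, the authors prepared ribosomal RNA-depleted libraries from 300 ng RNA and used Seq2science with fastp, STAR and MultiQC on hg38 (GRCh38.p14). The values deposited by the authors are TPM, which sum to 1000000 in each replicate. The annotation release, the length used and the use of strand are not given in the sources used here. Columns were matched by library name.

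Identifiers were matched to GENCODE release 44 (62700 genes found, 54 not). TPM times the length of the longest transcript (1 base less per exon), divided by its smallest value above 0, was whole within 0.01 for 100% of values and was taken as reads, on the assumption that this step is 1 read. A mean of at least 1 TPM, the study's cutoff, counted as expressed. Levels are means with SD. A permutation of signs over 3 replicates cannot go below p = 0.25, so order was judged by the spread between replicates. Variation between libraries was tested by chi-square (2 degrees of freedom, at least 15 reads). The named genes are the 10 genes and, of each pathway list, the 3 highest and the lowest by mean. Other pathway genes that are named (AMOTL1, AMOTL2, FAT3, DCHS1, DCHS2, CRB1, TGFB2 and FOXF2) were chosen after their values were seen. No likeness between gene patterns was computed over 3 samples. The genes and lists were chosen with earlier results of these data known. Alternatives concerned scale, transcript length, cutoff, pseudocount, filter and left-out replicates. Tests were run with scipy 1.17.1 and tables handled with pandas 2.3.3 and numpy 2.4.6 in Python 3.11.15, and plots were drawn with matplotlib 3.10.9.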

Additional observations from a re-analysis of the deposited data

How the results depend on the processing

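No paired analysis was possible because no second condition was measured in the libraries used. All 10 genes were at or above 1 TPM under each scale, length and left-out replicate. By the mean of all 3 replicates they were also at or above cutoffs of 0.5, 2 and, chosen after seeing the data, 10 TPM. TEAD3 was below 10 TPM in replicate 3 (8.48), and by the mean with canonical lengths (8.93) and without replicate 2 (9.85). The 97 pathway genes gave 80 to 84 such genes under other cutoffs, lengths and scales, and 70 at 10 TPM. With the TPM of protein-coding genes set to sum to 1000000, levels rose by construction, to 167 TPM for YAP1, 61.1 for WWTR1, 36.5 for TEAD2, 65.6 for CCN1 and 62.8 for CCN2, and the other 5 genes moved by less than 1 SD. The SD between replicates rose only for TEAD2 (3.66 to 4.19 TPM) and CCN1 (4.93 to 6.27 TPM). It fell for the rest, as for YAP1 (16.0 to 10.8 TPM) and WWTR1 (4.84 to 1.12 TPM). With canonical transcript lengths, levels were 118 TPM for YAP1, 43.3 for WWTR1, 48.1 for TEAD1, 46.1 for TEAD4, 62.7 for CCN1, 44.5 for CCN2, 19.3 for LATS1 and 15.4 for LATS2, the ratio of CCN1 to CCN2 was 1.41, and TEAD1 held 36.4% of TEAD TPM. Of the 10 genes, only CCN1 and TEAD2 have a canonical transcript shorter than their longest one. The levels of the other genes, TEAD3 included, fell by construction, because the TPM of all genes were again set to sum to 1000000. In this setting CCN1 took the position after YAP1 and 6 neighbouring pairs were apart. That number was 5 with a pseudocount of 0.1 and with any 1 replicate left out, and YAP1, TEAD2, LATS1, LATS2 and TEAD3 kept their positions under all of these alternatives. The number of genes varying between replicates was 0, and also 0 with any 1 replicate left out, with at least 100 reads and with no filter. It was 1 (TEAD3) with equal TPM as deposited, where 12.9% of all genes were called, and 6 with no minimum ratio. Over all genes, 1228 were called, against 2036 with equal TPM, 4933 with no minimum ratio, 622 with at least 100 reads, and 745, 238 and 700 without replicate 1, 2 and 3. Depth limits TEAD3 most, with 113 reads in replicate 3.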
